A study of Mus musculus with 6 samples.

Results

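Genes of protein folding and of the unfolded protein response are described here, 34 named genes out of 24532 in a bulk mRNA sequencing table, chosen by symbol, by a rule that uses no measured value. Of the 34, 7 encode cytosolic heat shock proteins and 27 encode chaperones, enzymes, degradation factors, sensors and transcription factors of the endoplasmic reticulum and its stress response. All 34 passed the filter on low counts that left 15774 genes tested. The tissue was the core of the nucleus accumbens, a ventral striatal region with a role in reward, from wild-type adolescent male mice, with postnatal days 35 to 55 given as the age.

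Cells fold new proteins with chaperones, and they keep separate sets of them in the cytosol and in the endoplasmic reticulum, the compartment where secreted and membrane proteins are made. In the cytosol, unfolded protein frees the transcription factor Hsf1, which switches on heat shock genes. In the endoplasmic reticulum, the sensors Ire1 (gene Ern1), Perk (Eif2ak3) and Atf6 start the unfolded protein response, which raises chaperones through Xbp1 and Atf6 and lowers general translation through Perk, which also raises Atf4. Neurons depend on both systems, since receptors, channels and peptides for synapses pass through the endoplasmic reticulum.

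The groups were 3 libraries titled ethanol and 3 titled control. The ethanol schedule followed contextual fear conditioning and was 6 intraperitoneal injections of 20% v/v ethanol in saline within 6 h, at 1.8 g/kg first and at 1.2 g/kg thereafter. The protocol does not say what the control mice were injected with, and the treatment field names ethanol exposure for all 6 samples, so only the titles, descriptions and column headers set the groups apart. Extinction trials and 27 days of drinking on alternate days came next, with tissue taken 24 h later. The protocol describes these steps for the mice as a whole. The 27 days of drinking are longer than the span of postnatal days 35 to 55. That age therefore cannot span the whole schedule, and the age when tissue was taken may differ from it. Separate animals are not stated, so a p-value here reflects only how these samples spread, and that spread may be technical. In bulk tissue, fewer cells of a type and less RNA per cell cannot be told apart.

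The libraries held 35898026 to 67399599 estimated reads, and 3 reads stood for 0.0445 to 0.0836 counts per 1000000 reads (CPM). Control 2 stood apart, with reads for 15924 genes against 17096 to 17707 in the other 5 libraries, and it lay alone on the first principal component, at 75.9 against -34.3 to -0.42. Of the 15774 genes tested, 0.0% passed an adjusted p of 0.05 in edgeR's quasi-likelihood test, with 1681 at an unadjusted p under 0.05. DESeq2 called 145 genes and limma-voom called 0. Without ethanol 2 edgeR called 211 genes, and without control 1 it called 1. All fold changes below are ethanol over control on the log2 scale of the edgeR fit with 1 standard error (SE), and the median over all genes tested was 0.021.

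None of the 34 genes passed the adjusted threshold, by edgeR, DESeq2 or limma-voom. The smallest adjusted p among them was 0.427 by edgeR, 0.0934 by DESeq2 and 0.379 by limma-voom. Hspa5, Hyou1 and Dnajb1 were at an unadjusted p under 0.05, all 3 with ethanol higher, while 5.31% of all genes tested met that rule with ethanol higher. No member met it with ethanol lower, where the share of all genes was 5.34%. For 8 members every ethanol library lay above every control library in CPM, against 9.35% of all genes: Hsph1, Dnajb1, Hspa5, Hyou1, Pdia4, Pdia6, Herpud1 and Atf6. In deposited FPKM the groups of Herpud1 and Atf6 overlapped. No member had every ethanol library below every control library, against 8.41% of all genes. The log2 fold change was above 0 for 25 of 34 members and for 52.7% of all genes. Its median was 0.20 over the 7 cytosolic members and 0.20 over the 27 of the endoplasmic reticulum. Scaling by total counts moved the median of all genes to -0.063 and left 19 of 34 members above 0, as 4 of 7 cytosolic and 15 of 27 reticulum members.

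**Figure D1:**
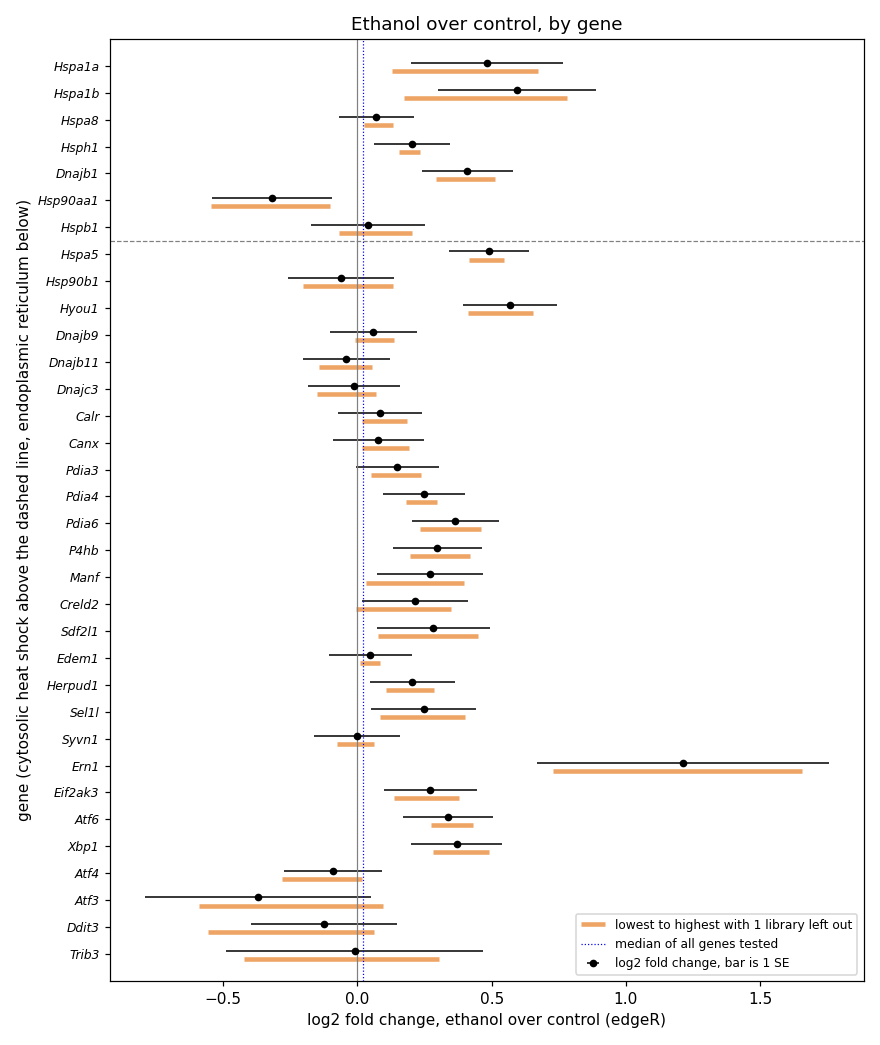
Log2 fold change of each of the 34 genes, ethanol over control, on the x axis, with 1 SE as a black bar and the lowest to highest value with 1 library left out as an orange bar. The dotted line is the median of all genes tested at 0.021; Ern1 at 1.21 and Hspa1b at 0.595 lie farthest to the right and Atf3 at -0.37 farthest to the left.

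Levels between genes were compared per length of transcript, as deposited FPKM (fragments per length of transcript and per depth). Hspa8, the constitutive cytosolic HSP70, was the most abundant member at 1057 ± 28.0 FPKM in ethanol and 1087 ± 76.6 FPKM in control libraries (SD, n = 3 each). It stood at the 99.9 percentile of the genes tested. Hsp90aa1, the inducible HSP90, followed at 215.6 ± 76.2 FPKM in ethanol and 287 ± 18.3 FPKM in control libraries, and Calr, a calcium-binding lectin chaperone, at 202.5 ± 16.7 and 206.6 ± 7.15 FPKM in ethanol and control libraries. The next pair, Hsp90b1 (Grp94) at 114.0 ± 31.4 FPKM in ethanol and 127 ± 3.31 FPKM in control libraries, and Hspa5 (BiP) at 114.8 ± 8.49 and 88.2 ± 4.80 FPKM in ethanol and control libraries, overlapped in the ethanol libraries, while in the control libraries Hsp90b1 was the higher by more than the spread.

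The lowest levels were those of Trib3 at 0.470, Atf3 at 0.615 and Ern1 at 0.696 FPKM, averaged over the 6 libraries. Edem1 averaged 2.80 FPKM, and the sensors Atf6 and Eif2ak3 averaged 4.55 and 4.73 FPKM. The inducible HSP70 copies Hspa1a and Hspa1b averaged 4.20 and 2.82 FPKM. Ddit3, which encodes the stress factor Chop, was at 37.3 FPKM, in the same range as Xbp1 at 38.3 FPKM and Herpud1 at 37.4 FPKM. All 34 genes had reads in every library.

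**Figure D2:**
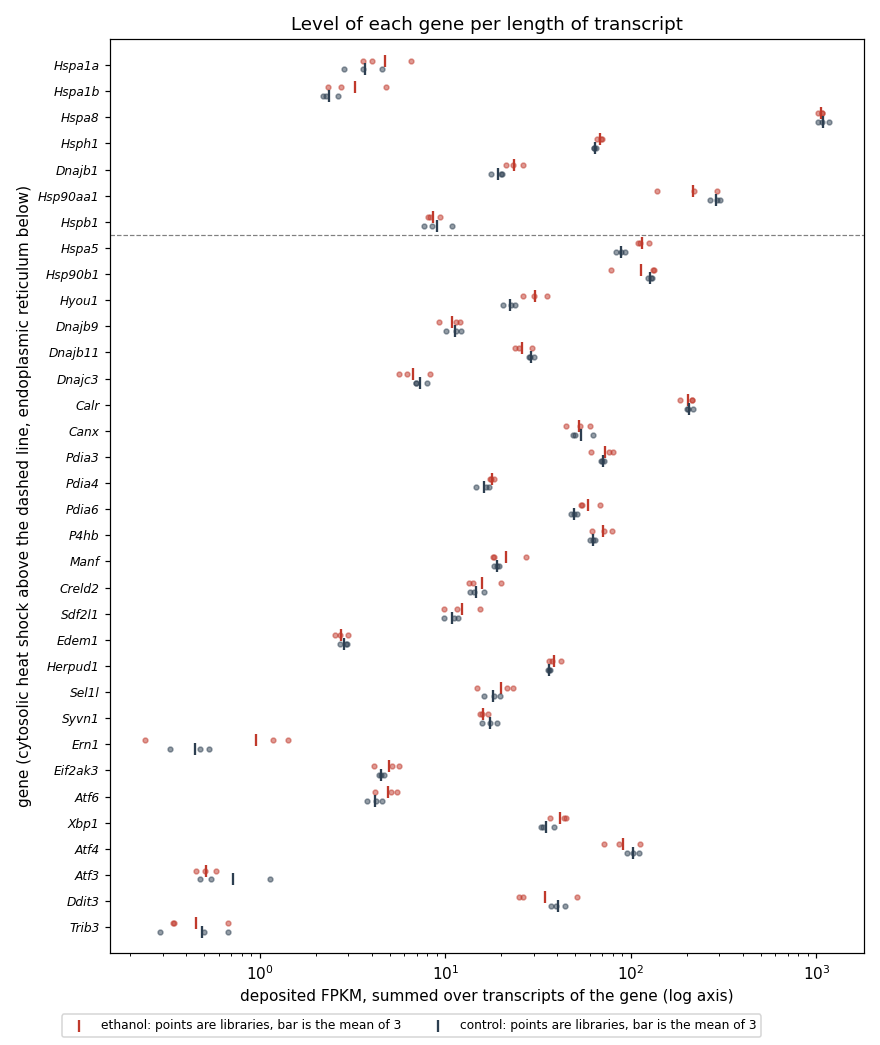
Deposited FPKM of each gene, summed over its transcripts, on a log x axis, with ethanol libraries above control libraries in each row, points for libraries and a bar for the mean of 3. Hspa8 lies near 1072 FPKM and Trib3 near 0.470 FPKM.

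Among the cytosolic members, the HSP70 and HSP110 genes were all above 0 in log2 fold change, most of it from ethanol 1 for the inducible copies. Hspa1a had 24.2, 12.7 and 13.6 CPM in ethanol 1, 2 and 3, against 14.96, 9.23 and 11.95 CPM in control 1, 2 and 3. Hspa1b had 17.6, 8.25 and 9.285 CPM in ethanol 1, 2 and 3, against 8.68, 7.38 and 7.245 CPM in control 1, 2 and 3. In both copies ethanol 1 was the highest library, and the remaining ethanol values lay within the control range apart from ethanol 3 for Hspa1b.

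The log2 fold change was 0.48 (SE 0.28) for Hspa1a and 0.595 (SE 0.29) for Hspa1b, and without ethanol 1 the values were 0.13 and 0.175. These neighbouring genes on chromosome 17 (Hspa1a at 34969359 to 34972156 and Hspa1b at 34956429 to 34959238, mm10) encode nearly identical proteins, so the split of reads between them is uncertain. Their summed reads gave 41.8, 21.0 and 22.9 CPM in ethanol 1, 2 and 3, against 23.6, 16.6 and 19.2 CPM in control 1, 2 and 3. The sum had a log2 fold change of 0.53 (SE 0.27), with an adjusted p of 0.509 in edgeR's quasi-likelihood test.

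Dnajb1, the J-domain protein that hands substrates to HSP70, separated the groups. It had 104, 88.5 and 76.8 CPM in ethanol 1, 2 and 3, against 70.0, 69.8 and 62.7 CPM in control 1, 2 and 3. The lowest ethanol library exceeded the highest control library. It had a log2 fold change of 0.41 (SE 0.17), with an adjusted p of 0.45 in edgeR's quasi-likelihood test, and 0.29 without ethanol 1. Of its 2 listed transcripts the shorter took 12% of the gene's reads in control 2 and 0.44% to 2.55% in the other libraries.

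Hsph1, the HSP110 that recharges HSP70 with nucleotide, showed a small gap between tight groups. It had 319.7, 289 and 288 CPM in ethanol 1, 2 and 3, against 258, 260.0 and 261 CPM in control 1, 2 and 3. On the log2 scale the difference was 0.20 (SE 0.14), with an adjusted p of 0.614 in edgeR's quasi-likelihood test. The shorter of its 2 listed transcripts (3367 against 3478 bases) took 3.28%, 3.37% and 2.80% of its reads in ethanol 1, 2 and 3, against 1.58%, 1.73% and 1.02% in control 1, 2 and 3. Every ethanol share lay above every control share. Tested as a single transcript it had a log2 fold change of 1.35 (SE 0.32) and an adjusted p of 0.732 over all transcripts by edgeR.

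The other 3 cytosolic members did not separate the groups. Hspa8 ranged over 2591 to 2982 CPM in ethanol and 2491 to 2912 CPM in control libraries, at 0.070 (SE 0.14) in log2 fold change. Hspb1, a small heat shock protein that holds unfolded protein, ranged over 8.94 to 10.8 CPM in ethanol and 7.98 to 11.6 CPM in control libraries, at 0.039 (SE 0.21). Hsp90aa1 was the only cytosolic member below 0, at -0.32 (SE 0.22).

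Hsp90aa1 had 518, 789 and 994 CPM in ethanol 1, 2 and 3, against 889.6, 999 and 982 CPM in control 1, 2 and 3. Ethanol 1 and 2 lay below every control, ethanol 1 by the most, and without ethanol 1 its log2 fold change was -0.10. Ethanol 1 was also the library in which genes of under 45% GC were lowest, with a median centred log2 CPM of -0.295 over 3726 such genes, and Hsp90aa1 had 43.7% GC. Of the other members under 45% GC, Hsp90b1, Dnajc3 and Dnajb9 were at -0.493, -0.177 and -0.131 in centred log2 CPM in ethanol 1. Canx, at 42.16% GC, was at 0.128 there, with 299.9 CPM against 242.5 to 308 CPM in the other 2 ethanol libraries. With GC and length trends removed together, the log2 fold change of Hsp90aa1 was -0.245. The part of GC content in the low value of ethanol 1 was not tested.

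**Figure D3:**
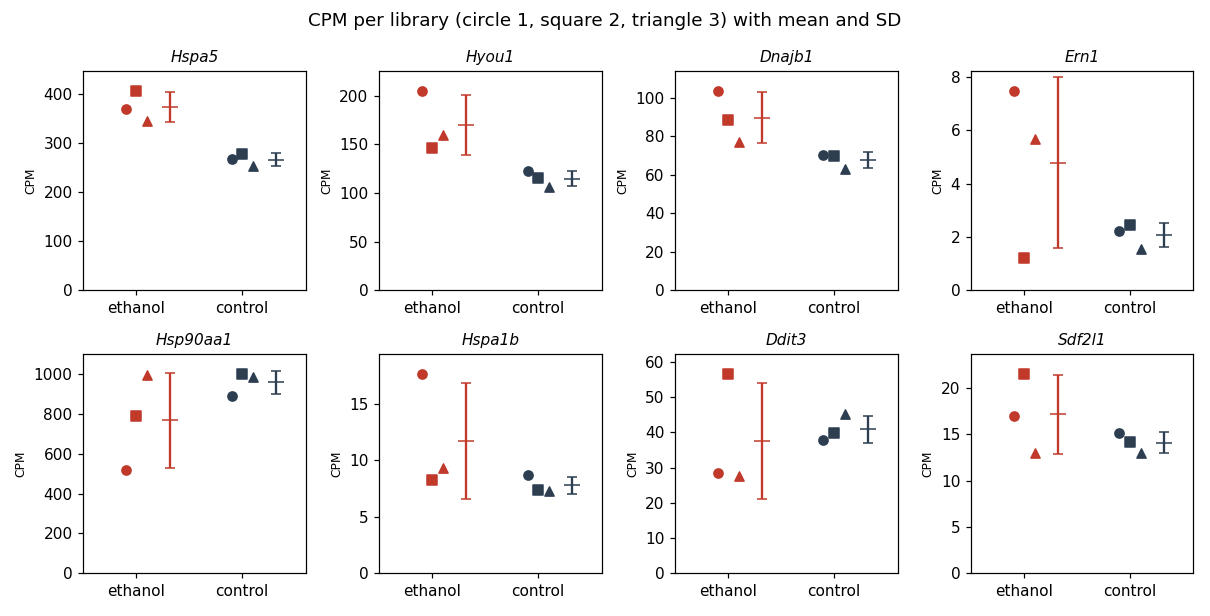
CPM of 8 genes in each library (circle 1, square 2, triangle 3), ethanol left of control, with the group mean and SD beside the points. Hspa5, Hyou1 and Dnajb1 have all ethanol points above all control points, while Ern1, Hsp90aa1, Hspa1b, Ddit3 and Sdf2l1 each have at least 1 ethanol library inside or below the control range.

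Lumenal chaperones of the endoplasmic reticulum included the 2 members with the smallest p. Hspa5 encodes BiP, the HSP70 of the endoplasmic reticulum, which binds unfolded chains and holds the sensors inactive. It lies on chromosome 2 (34772090 to 34776529, mm10). Hspa5 had 368, 406 and 345 CPM in ethanol 1, 2 and 3, against 267, 277 and 252 CPM in control 1, 2 and 3. All 3 ethanol libraries were above the control libraries with a gap wider than the range within the control group. Ethanol over control, Hspa5 was at 0.49 (SE 0.15) on the log2 scale, with an adjusted p = 0.427 by edgeR's quasi-likelihood test. With 1 library left out it ranged over 0.41 to 0.55, with adjusted p of 0.111 to 0.933 by edgeR, and it was 0.525 without control 2.

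Hyou1 encodes the large HSP110 of the same compartment, which exchanges nucleotide on BiP, and lies on chromosome 9 (44379490 to 44392369, mm10). It had 205, 146 and 159.5 CPM in ethanol 1, 2 and 3, against 123, 116 and 106.5 CPM in control 1, 2 and 3. Ethanol 1 was the highest library and no ethanol value reached down to the control group. Hyou1 was at 0.57 (SE 0.175) in log2 fold change, with an adjusted p = 0.427 by edgeR's quasi-likelihood test. Without ethanol 1 it was 0.41, without control 2 it was 0.575, and without control 3, Hyou1 alone of the 34 was at an unadjusted p under 0.05. As group means, BiP and its exchange factor were at 373 ± 30.6 and 170.3 ± 31.0 CPM in ethanol libraries against 265.5 ± 12.6 and 115 ± 8.11 CPM in control libraries (SD, n = 3 each).

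Hsp90b1, the HSP90 of the compartment, gave another picture. It had 283, 463 and 436.5 CPM in ethanol 1, 2 and 3, against 399, 412 and 423 CPM in control 1, 2 and 3. Ethanol 1 was far below all other libraries and ethanol 2 and 3 were above them. Its log2 fold change was -0.061 (SE 0.20). Its GC content was 42.05%, and with GC and length trends removed together its log2 fold change was 0.094. The part of GC content in its low value in ethanol 1 was not tested.

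The promoters of reticulum chaperones carry the endoplasmic reticulum stress element (ERSE), read by Atf6 and Xbp1 with the factor NF-Y, as CCAAT, 9 bases and CCACG. RefSeq promoters (GRCm38.p6, the 250 bases before each gene's start) were given for 29 of the 34 genes, 24 of them reticulum and 5 cytosolic members. Hyou1, Manf, Atf6, Hspa8 and Hsp90aa1 had none and are left out of every motif count. The element was found on either strand in 8 of 24 reticulum members, in 0 of 5 cytosolic members and in 35 of 27025 genes in the table (0.13%). The windows below are shown to place the element in each of the 8, with capitals marking it and 15 bases on each side, in the gene's own direction. CGTGG first and ATTGG last is the element on the opposite strand. ERSE was first defined on mammalian promoters that include those of Hspa5, Hsp90b1 and Calr, so finding it in them is no new observation.
Hspa5, chr2:34772010-34772058, plus strand: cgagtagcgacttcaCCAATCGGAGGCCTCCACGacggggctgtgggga
Hsp90b1, chr10:86705518-86705566, minus strand: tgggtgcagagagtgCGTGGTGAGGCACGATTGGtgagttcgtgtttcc
Hsp90b1, chr10:86705623-86705671, minus strand: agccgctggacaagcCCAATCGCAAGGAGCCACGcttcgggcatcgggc
Calr, chr8:84847060-84847108, minus strand: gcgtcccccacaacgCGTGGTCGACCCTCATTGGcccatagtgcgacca
Canx, chr11:50325785-50325833, minus strand: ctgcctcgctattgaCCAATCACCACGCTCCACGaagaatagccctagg
Pdia6, chr12:17266476-17266524, plus strand: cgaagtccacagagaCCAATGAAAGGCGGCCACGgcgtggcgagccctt
Creld2, chr15:88819505-88819553, plus strand: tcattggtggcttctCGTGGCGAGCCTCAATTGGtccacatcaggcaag
Dnajc3, chr14:118937812-118937860, plus strand: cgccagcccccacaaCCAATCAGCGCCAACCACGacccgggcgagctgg
Syvn1, chr19:6046517-6046565, plus strand: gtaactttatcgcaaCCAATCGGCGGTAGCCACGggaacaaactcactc

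In Hspa5 the element began 65 bases before the start of the gene, in Syvn1 44 bases and in Calr 162 bases before it. The 8 genes with the element did not share a direction between the groups, with 5 above and 3 below 0, their median being 0.081 on the log2 scale. The 16 reticulum members in the table without it had 11 above and 5 below 0 and a median of 0.18. Only exact matches lying wholly within the window were counted. The window of Herpud1, counted among those without it, ended in the element short of only the last base of CCACG. That base lay past the window and was not read, so the set to which Herpud1 belongs is undecided. Another 13 tested genes of the table held the element and had a median of -0.25, with 5 above 0. Of the other motifs searched on both strands, the CCAAT box, part of ERSE, was in 24 of 29 members and 37.5% of all genes. TGACGT, a core bound by ATF and CREB factors, was in 4 members and 7.29% of all genes. TTGCATCA, an amino acid response element read by Atf4, was in Atf3 and Herpud1 and in 0.918% of all genes. The letters TGACGTGG, and GAA, TTC and GAA in alternation with 2 bases between, were in no member's window, and in 0.603% and 0.514% of all genes.

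The J-domain partners of BiP were close to 0 in log2 fold change. Dnajb9 (Erdj4), Dnajb11 (Erdj3) and Dnajc3 (P58IPK) were at 0.059, -0.041 and -0.014, each with an SE of 0.16 to 0.17. Dnajb9 ranged over 22.7 to 26.9 CPM in ethanol and 22.1 to 26.3 CPM in control libraries. Dnajb11 ranged over 57.5 to 73.9 CPM in ethanol and 65.5 to 71.4 CPM in control libraries, and Dnajc3 over 38.7 to 51.8 CPM in ethanol and 42.3 to 47.8 CPM in control libraries. The lectin chaperones Calr and Canx, which hold glycoproteins while they fold, stood at 0.084 (SE 0.155) for Calr and 0.077 (SE 0.17) for Canx in log2 fold change. Calr ranged over 428 to 544 CPM in ethanol and 458 to 493 CPM in control libraries, and Canx over 242.5 to 308 CPM in ethanol and 247 to 309 CPM in control libraries. All 5 genes had overlapping groups.

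The 4 disulfide isomerases, enzymes that form and rearrange disulfide bonds, were all above 0, and 2 of them separated the groups. Pdia6 had 153, 183.5 and 137 CPM in ethanol 1, 2 and 3, against 122.5, 126 and 119 CPM in control 1, 2 and 3. Pdia4 had 57.5, 54.4 and 54.8 CPM in ethanol 1, 2 and 3, against 48.0, 42.3 and 50.1 CPM in control 1, 2 and 3. Pdia6 differed most through ethanol 2 and Pdia4 by a narrow margin. Pdia6 was at 0.365 (SE 0.16) and Pdia4 at 0.25 (SE 0.15) in log2 fold change, with adjusted p of 0.468 and 0.565 by edgeR. P4hb, the founding isomerase, had a log2 fold change of 0.30 (SE 0.165) with 187 to 254 CPM in ethanol and 179 to 191 CPM in control libraries. Pdia3, which works with Calr and Canx, had 0.15 (SE 0.155) with 211 to 269 CPM in ethanol and 213 to 220.2 CPM in control libraries. In both, 1 ethanol library lay inside or below the control range. Without ethanol 2 the log2 fold change was 0.23 for Pdia6, 0.19 for P4hb and 0.05 for Pdia3.

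Of the small lumenal proteins that the unfolded protein response induces, Manf, Creld2 and Sdf2l1, had the same order of ethanol libraries. Manf, which can also be secreted as a trophic factor, had 52.3, 75.9 and 48.2 CPM in ethanol 1, 2 and 3, against 47.3, 48.2 and 50.9 CPM in control 1, 2 and 3. Creld2 had 25.2, 34.4 and 21.9 CPM in ethanol 1, 2 and 3, against 22.6, 25.6 and 22.0 CPM in control 1, 2 and 3. Sdf2l1, a partner of BiP, had 16.95, 21.5 and 13.0 CPM in ethanol 1, 2 and 3, against 15.2, 14.2 and 13.0 CPM in control 1, 2 and 3. Ethanol 2 was the highest library in all 3 genes, and ethanol 3 lay at or below the middle of the controls. The log2 fold changes were 0.27, 0.21 and 0.28, each with an SE of 0.20 to 0.21. Without ethanol 2 they were 0.031 for Manf, -0.004 for Creld2 and 0.077 for Sdf2l1. They were described one by one after their values were seen.

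Degradation genes remove chains that fail to fold. Herpud1, which gathers the degradation complex, separated the groups with 103, 89.3 and 81.1 CPM in ethanol 1, 2 and 3, against 78.6, 79.1 and 80.1 CPM in control 1, 2 and 3. The margin between the lowest ethanol and the highest control library was 81.1 against 80.1 CPM. In deposited FPKM the groups of Herpud1 overlapped, with 36.07 in ethanol 3 against 36.47 in control 2. Its log2 fold change was 0.20 (SE 0.16), with an adjusted p of 0.642 by edgeR. Sel1l, the adaptor of the ligase, had 0.25 (SE 0.20), with 191, 118 and 163 CPM in ethanol 1, 2 and 3, against 135, 143 and 121 CPM in control 1, 2 and 3. Ethanol 2 was the lowest library for Sel1l, whose log2 fold change was 0.083 without ethanol 1 and 0.40 without ethanol 2. Herpud1 was at 0.11 without ethanol 1. Syvn1 (Hrd1), the ligase itself, had -0.002 (SE 0.16), with 66.0 to 77.6 CPM in ethanol and 63.1 to 76.4 CPM in control libraries. Edem1, which marks glycoproteins for disposal, had 0.048 (SE 0.155), with 18.9 to 21.0 CPM in ethanol and 18.5 to 20.2 CPM in control libraries. Edem1 was the member with the narrowest range, the highest library being 1.13 times the lowest.

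The sensors were spread widest, because of Ern1. Ern1 encodes Ire1, the kinase and nuclease that splices Xbp1 mRNA, and lies on chromosome 11 (106397620 to 106487796, mm10). It had 7.49, 1.22 and 5.66 CPM in ethanol 1, 2 and 3, against 2.20, 2.44 and 1.56 CPM in control 1, 2 and 3. Ethanol 1 and 3 were above all controls and ethanol 2 was below all of them, so the highest library was 6.15 times the lowest. Its log2 fold change was the largest of the 34, 1.21 (SE 0.545), with an adjusted p = 0.47 by edgeR's quasi-likelihood test. Without ethanol 2 Ern1 passed the adjusted threshold, with a log2 fold change of 1.65 and an adjusted p of 0.0332 by edgeR, and without ethanol 1 it was 0.73. Its adjusted p ranged over 0.0332 to 0.933 across the alternatives, and no other fit run called Ern1 or any other member.

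Atf6, the sensor that becomes a transcription factor after cleavage, separated the groups in CPM. It had 50.0, 39.32 and 49.3 CPM in ethanol 1, 2 and 3, against 37.0, 39.30 and 33.5 CPM in control 1, 2 and 3. The margin was no wider than 39.32 CPM in ethanol 2 against 39.30 CPM in control 2. In deposited FPKM the groups of Atf6 overlapped, with 4.16 in ethanol 2 against 4.545 in control 2. Its log2 fold change was 0.34 (SE 0.17), with an adjusted p of 0.492 by edgeR. Eif2ak3 (Perk), the kinase that halts translation, had 33.2, 23.2 and 27.9 CPM in ethanol 1, 2 and 3, against 23.6, 23.5 and 22.9 CPM in control 1, 2 and 3, and a log2 fold change of 0.27 (SE 0.17), which was 0.135 without ethanol 1. In all 3 sensors ethanol 2 was the lowest ethanol library.

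Of 5 transcription factors and effectors downstream, 4 were below 0. Xbp1 was above it, with 132, 124 and 98.5 CPM in ethanol 1, 2 and 3, against 87.7, 100.0 and 87.2 CPM in control 1, 2 and 3. Ethanol 3 lay inside the control range. Xbp1 was at 0.37 (SE 0.17) in log2 fold change, with an adjusted p = 0.474 by edgeR's quasi-likelihood test. Of its 2 listed transcripts, the shorter lacks 26 bases, the length of the intron that Ire1 removes. It took 2.25%, 4.92% and 4.22% of Xbp1 reads in ethanol 1, 2 and 3, against 2.18%, 6.52% and 9.25% in control 1, 2 and 3. These shares are estimates that the authors' processing split between transcripts, and the groups overlapped.

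Atf4, Atf3, Ddit3 and Trib3 form the arm below Perk. Atf4, the main activator of the integrated stress response, had 164, 239 and 179 CPM in ethanol 1, 2 and 3, against 191, 204.5 and 225 CPM in control 1, 2 and 3. Ddit3 had 28.5, 56.5 and 27.5 CPM in ethanol 1, 2 and 3, against 37.8, 39.7 and 45.1 CPM in control 1, 2 and 3. In both genes ethanol 2 was the highest library and ethanol 1 and 3 were below every control. In log2 fold change the values were -0.091 (SE 0.18) for Atf4 and -0.12 (SE 0.27) for Ddit3. Without ethanol 2, Ddit3 was at -0.56 with an adjusted p of 0.0856 by edgeR, against a range of adjusted p from 0.0856 to 0.99 over the fits with 1 library left out. Atf4's shorter transcript held reads in ethanol 2, where it took 12.8% of the gene, and in control 1, where it took 1.23%.

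Atf3, a repressor induced by many stresses, had the lowest fold change of the 34. It had 1.18, 1.29 and 1.395 CPM in ethanol 1, 2 and 3, against 1.28, 2.60 and 1.12 CPM in control 1, 2 and 3. Control 2 alone was high, and without it the sign of Atf3 turned. Its log2 fold change was -0.37 (SE 0.42). Trib3, a pseudokinase that Ddit3 induces, had 0.924, 1.75 and 0.859 CPM in ethanol 1, 2 and 3, against 1.63, 1.195 and 0.711 CPM in control 1, 2 and 3. It averaged 1.18 ± 0.50 CPM in ethanol and 1.18 ± 0.46 CPM in control libraries (SD, n = 3 each).

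**Figure D4:**
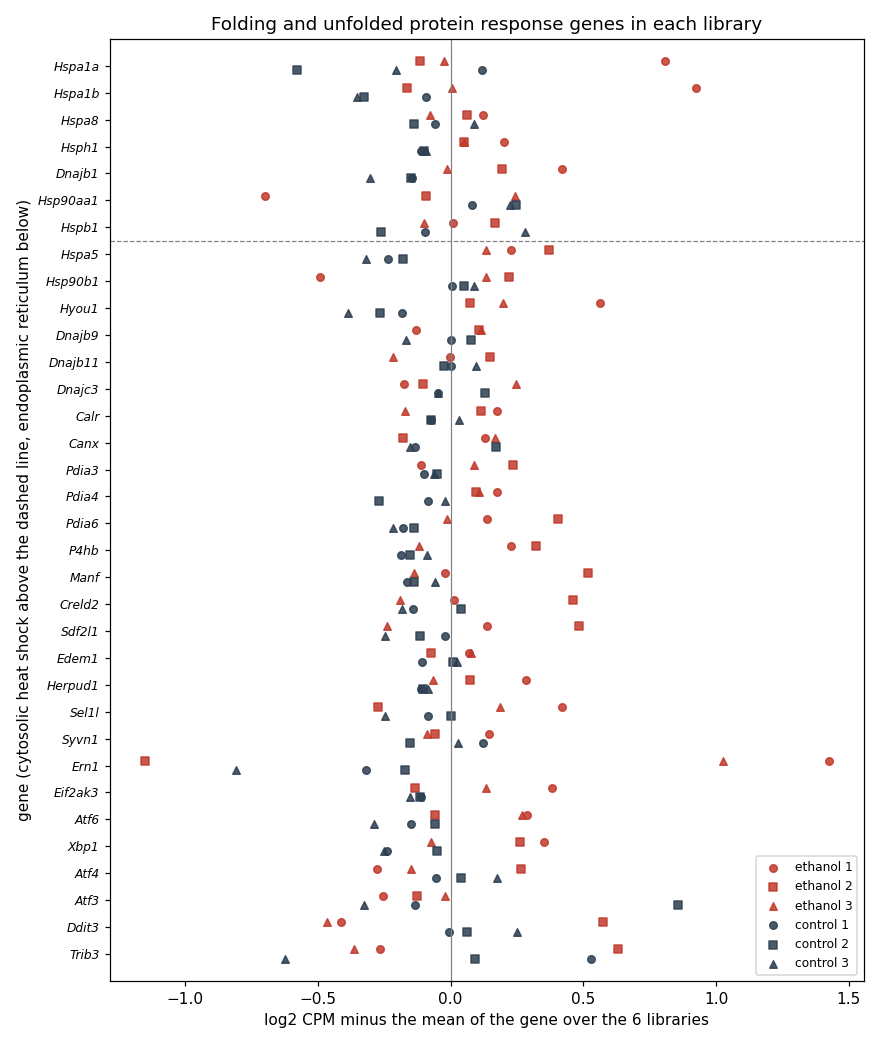
Log2 CPM of each gene minus its mean over the 6 libraries on the x axis, ethanol in red and control in dark blue, with a symbol per library number. Ethanol 2 (red squares) lies to the right for Manf, Creld2, Sdf2l1, Atf4, Ddit3 and Trib3 and to the left for Ern1 and Sel1l, and ethanol 1 (red circles) lies to the right for Hspa1a and Hspa1b and to the left for Hsp90aa1 and Hsp90b1.

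The ethanol libraries differed from each other in which members were high. Ethanol 1 was the highest library for 15 of 34 members, ethanol 2 for 12, ethanol 3 for 3, and control 1, 2 and 3 for 0, 3 and 1. The matching counts over all genes tested were not made. The sensors averaged 0.70, -0.45 and 0.48 in centred log2 CPM in ethanol 1, 2 and 3, against -0.19, -0.12 and -0.42 in control 1, 2 and 3. Their medians were smaller, at 0.38, -0.13 and 0.27 in ethanol 1, 2 and 3, against -0.15, -0.12 and -0.29 in control 1, 2 and 3. The mean of the transcription factors and effectors ran the other way among the ethanol libraries, at -0.17, 0.32 and -0.21 in ethanol 1, 2 and 3, against 0.018, 0.20 and -0.15 in control 1, 2 and 3. Xbp1 and Atf3 did not share that order, with ethanol 2 between ethanol 1 and ethanol 3 in each. Disulfide isomerases averaged 0.11, 0.26 and 0.015 in ethanol 1, 2 and 3, against -0.14, -0.15 and -0.098 in control 1, 2 and 3.

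The cytosolic and reticulum sets were then compared within each library, as the mean over members of log2 CPM centred on each gene's own mean, so that gene length drops out. The reticulum mean was 0.11, 0.12 and 0.021 in ethanol 1, 2 and 3, against -0.082, -0.020 and -0.149 in control 1, 2 and 3. Every ethanol library was above every control library, by a group difference of 0.17 with a pooled SD of 0.060. The difference was 0.20 without control 2, 0.084 with total counts only and 0.058 on deposited FPKM. Of the 27 genes, 17, 18 and 13 were above their own mean in ethanol 1, 2 and 3, against 5, 10 and 7 in control 1, 2 and 3. Among all 15774 genes tested the counts were 8158, 7703 and 8385 in ethanol 1, 2 and 3. They were 7694, 7609 and 8265 in control 1, 2 and 3.

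The cytosolic mean was 0.255, 0.015 and 0.012 in ethanol 1, 2 and 3, against -0.044, -0.186 and -0.052 in control 1, 2 and 3. Here too the groups did not overlap, with a difference of 0.19 and a pooled SD of 0.11, and ethanol 1 stood far above the rest. Without Hspa1a and Hspa1b the cytosolic difference was 0.071, and without control 2 it was 0.14. It was 0.104 with total counts only and 0.077 on deposited FPKM. No p is given for these means.

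Subtracting the reticulum mean from the cytosolic mean gave 0.14, -0.10 and -0.009 in ethanol 1, 2 and 3, against 0.038, -0.17 and 0.097 in control 1, 2 and 3. The groups overlapped, and their difference of 0.021 was within the pooled SD of 0.13. Leaving out ethanol 1 gave -0.046 and leaving out control 2 gave -0.057.

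**Figure D5:**
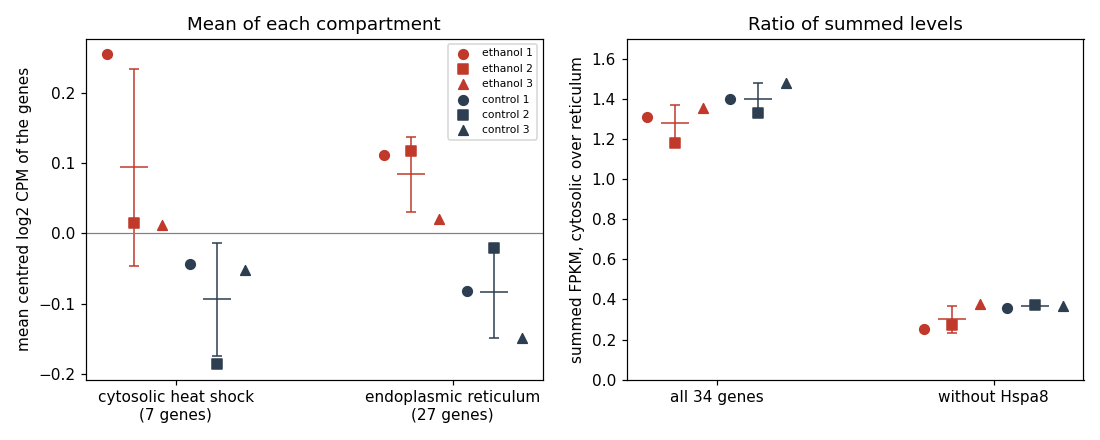
Left, the mean centred log2 CPM of the 7 cytosolic and the 27 endoplasmic reticulum genes in each library, ethanol in red left of control in dark blue, with group mean and SD as bars. Right, the ratio of summed FPKM of the cytosolic over the endoplasmic reticulum genes, with all 34 genes and without Hspa8; ethanol averages 1.28 and control 1.40 with overlapping points.

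On the scale of summed FPKM the cytosolic set reached 1328 to 1420.0 in ethanol and 1422 to 1561 in control libraries, and the reticulum set 1013 to 1181 in ethanol and 1025 to 1071 in control libraries. For the cytosolic sum every ethanol library was thus below every control library, opposite in direction to the cytosolic mean of centred log2 CPM. The reticulum sums overlapped. The ratio of cytosolic over reticulum FPKM was 1.31, 1.18 and 1.35 in ethanol 1, 2 and 3, against 1.40, 1.33 and 1.48 in control 1, 2 and 3, with overlapping groups. Hspa8 made up 72.2% to 80.9% of the cytosolic sum in ethanol and 71.9% to 75.1% in control libraries. Without it the ratio was 0.25, 0.27 and 0.38 in ethanol 1, 2 and 3, against 0.36, 0.37 and 0.37 in control 1, 2 and 3. Most of the cytosolic sum was then Hsp90aa1. It held 138, 219 and 290 of 253, 323 and 395.5 FPKM in ethanol 1, 2 and 3. In control 1, 2 and 3 it held 267, 303 and 291.5 of 366, 400 and 389 FPKM.

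Further genes of the same pathways were read from the same fit, none of which passed the adjusted threshold by edgeR. Of all genes tested, 52.7% were above 0 in log2 fold change, for comparison with each list and marker set below. At an unadjusted p under 0.05 by edgeR were 5.31% of all genes with ethanol higher and 5.34% with ethanol lower. Of 44 other cytosolic and mitochondrial chaperones, 27 were above 0 in log2 fold change, the median being 0.099, and 2 higher and 1 lower in ethanol were at an unadjusted p under 0.05. The 3 with the smallest p were Hspa9, the mitochondrial HSP70, at 0.38 (SE 0.145), Cct5, a subunit of the cytosolic chaperonin, at 0.43 (SE 0.17), and Ahsa2, related to an activator of HSP90, at -0.44 (SE 0.19). Of 44 other folding and translocation genes of the endoplasmic reticulum, 26 were above 0 with a median of 0.044, and 4 higher and 2 lower met the unadjusted rule. Mogs, which trims the first glucose from glycans, was at 0.515 (SE 0.16), Rcn1, a calcium-binding lumenal protein, at 0.49 (SE 0.17), and Tmx3, a membrane disulfide isomerase, at -0.68 (SE 0.26).

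Of 25 other degradation genes, 17 were above 0 with a median of 0.12, and 0 higher and 1 lower met the unadjusted rule. Aup1 was at -0.37 (SE 0.16), while Derl1, a channel component, was at 0.33 (SE 0.15) and Erlec1, a lectin of the same route, at 0.35 (SE 0.16). Of 38 genes of the integrated stress response and other transducers, 26 were above 0 with a median of 0.16, and 3 higher and 0 lower met the rule. These were Wfs1, a reticulum membrane protein, at 0.57 (SE 0.20), Sesn2, an Atf4 target, at 0.66 (SE 0.29), and Slc7a5, an amino acid transporter, at 0.37 (SE 0.16). Of 20 immediate early genes, induced by neuronal activity, 13 were above 0 with a median of 0.12. At the unadjusted rule were 1 higher and 1 lower. Egr3 was at 0.79 (SE 0.21), Npas4 at -0.87 (SE 0.25) and Nr4a3 at 0.41 (SE 0.25).

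Markers of cell types also differed between libraries. Those of striatal projection neurons, the main cells of the region, summed to 1497 to 3389 CPM in ethanol and 1552 to 1847 CPM in control libraries, with 7 of 8 above 0 in log2 fold change and none at 0 reads in any library. Ethanol 2, with 3389 CPM, was the high library. Astrocyte markers summed to 881 to 1229 CPM in ethanol and 688.5 to 998 CPM in control libraries, with 4 of 5 above 0. Cortical glutamatergic markers summed to 17.7 to 69.1 CPM in ethanol and 69.5 to 317.5 CPM in control libraries, with 3 of 4 tested below 0 and Emx1 at 0 reads in some library. Meningeal markers summed to 20.0 to 24.8 CPM in ethanol and 25.1 to 39.9 CPM in control libraries, with 5 of 5 below 0.

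Oligodendrocyte markers summed to 15210 to 19500 CPM in ethanol and 18340 to 21610 CPM in control libraries, with 4 of 5 below 0, microglial markers to 217.5 to 272 and 193 to 235 CPM in ethanol and control libraries, with 3 of 5 above 0, and endothelial markers to 152 to 168 and 159 to 196 CPM in ethanol and control libraries, with 3 of 5 below 0. Choroid plexus markers summed to 14.0 to 16.6 CPM in ethanol and 12.4 to 412.5 CPM in control libraries, where control 3 alone was high, and Folr1 and Kcnj13 were at 0 reads in some library. Blood markers summed to 105 to 427 CPM in ethanol and 117 to 220 CPM in control libraries, with 3 of 3 above 0 and Hbb-bs at 0 reads in some library. The part of these differences in the values of the 34 genes was not tested.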

How the data were processed

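Bulk mRNA sequencing of 3 ethanol and 3 control samples was read from 1 table deposited by the authors, with estimated counts and FPKM per RefSeq transcript, per the file headers. In each library 100% of the counts checked equalled FPKM times length times library size rounded up, within 0.05 reads, so they are estimated counts that the authors' processing split among transcripts. The submitters' processing notes name mm10 and bcl2fastq; for the aligner, counting tool and use of strand nothing was given in these sources. The 36780 transcripts were summed to 24532 genes. Genes passing filterByExpr (minimum count 10) were scaled by TMM and tested two-sided by the quasi-likelihood test of edgeR 4.0.16 (R 4.3.3) on group alone, and p-values were adjusted by Benjamini-Hochberg over all 15774 genes at a threshold of 0.05. CPM are per 1000000 TMM-scaled reads. Centred values use log2 CPM with a prior count of 2. The deposited FPKM, summed per gene, were used for levels between genes. The biological coefficient of variation was 0.252. No 2 libraries agreed within sampling noise, the least chi-square per degree of freedom over 15 pairs being 33.6. The floor of 3 reads covers counting error only.

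Alternatives were DESeq2 1.42.0, limma 3.58.1 (voom, also with weights per sample), other scalings, no filter, a replicate block, single transcripts and leaving out each sample; removal of GC and length trends over GENCODE M21 transcripts (97% of tested genes matched) was chosen after seeing the data. The rule picks members by symbol alone, but it was written, like the other gene lists, the marker lists and the tests, with earlier results of these data known. Every member is named, with values per library for members at an unadjusted p under 0.05, for those whose groups do not overlap and for the 4 largest fold changes per compartment; values per library of other members were added after they were seen. Of each other list the 3 genes with the smallest p are named. Protein sequences were not used here. Plots were made in matplotlib 3.10.9 (Python 3.11.15).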

Additional observations from a re-analysis of the deposited data

How the results depend on the processing

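The reticulum difference of 0.17 was 0.084 with total counts only and 0.058 on deposited FPKM, and 0.13 to 0.20 with 1 library left out. The cytosolic difference of 0.19 was 0.104 with total counts only, 0.077 on deposited FPKM and 0.071 without Hspa1a and Hspa1b, and 0.11 to 0.23 with 1 library left out. The cytosolic minus reticulum difference of 0.021 was -0.136 without Hspa1a, Hspa1b, Atf3, Ddit3 and Trib3, and -0.057 to 0.078 with 1 library left out. The count of genes called, 0, was 145 with DESeq2 and 0 to 211 with 1 library left out. The 3 members at an unadjusted p under 0.05 became 5 without the filter, 6 with DESeq2, 5 with sample weights, 7 with GC and length trends removed and 1 to 10 with 1 library left out (10 without ethanol 2, 8 without ethanol 3 and 1 without control 3). With the replicate block 0 genes were called and 2 members, Hspa5 and Hyou1, kept an unadjusted p under 0.05. Same-numbered samples did not deviate together (correlations 0.146, -0.031 and -0.017), so the numbers were not taken as pairs.

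Of 34 members, 19 kept their direction in all 14 alternative gene fits and 15 turned in some. Total counts gave -0.016 for Hspa8, -0.046 for Hspb1, -0.021 for Dnajb9, -0.005 for Calr, -0.003 for Canx and -0.034 for Edem1. Sample weights gave -0.035 for Hspb1 and 0.074 for Dnajc3. No filter gave 0.009 for Syvn1. Removing GC and length trends gave 0.094 for Hsp90b1, 0.076 for Dnajc3 and 0.063 for Ddit3. Single transcripts are not among those 14 fits. Minor transcripts gave -1.87 for Dnajb1, -0.92 and -0.37 for Canx and -0.30 for Xbp1. The main transcripts of Dnajb1, Canx and Xbp1 gave 0.49, 0.18 and 0.42. The transcripts of Syvn1 gave 0.007 and 0.61. With 1 library left out the range was -0.07 to 0.20 for Hspb1, -0.20 to 0.13 for Hsp90b1, -0.01 to 0.14 for Dnajb9, -0.14 to 0.053 for Dnajb11, -0.15 to 0.069 for Dnajc3, -0.004 to 0.35 for Creld2, -0.078 to 0.062 for Syvn1, -0.28 to 0.018 for Atf4, -0.59 to 0.096 for Atf3, -0.56 to 0.06 for Ddit3 and -0.42 to 0.30 for Trib3. The cause was not tested. Counting error is largest relative to the level in Atf3, Trib3 and Ern1, the members with the lowest counts.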
